A study of Mus musculus with 6 samples.

Results

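The serotonin receptor genes measured here were 10 entries of the count tables chosen by name: Htr1a, Htr1b, Htr1d, Htr1f, Htr2a, Htr2c, Htr4, Htr5a, Htr5b and Htr7. They were 10 of 32531 gene entries, and all of them passed the filter on low counts. RNA came from the midbrain of adult, untreated Lhx5-TRAP mice of line DT154, whose transgene places EGFP joined to Rpl10a, a protein of the large ribosomal subunit, under Lhx5 sequences. Lhx5 is a transcription factor of the LIM homeodomain class. The control libraries came from the same transgenic line. Translating ribosome affinity purification (TRAP) recovers tagged ribosomes with anti-EGFP antibodies, so that the RNA they carry can be sequenced apart from that of untagged cells. Immunopurified RNA (IP) gave 3 libraries, and 3 others are titled input but labelled unbound in a second field. The labels name no strain background, sex, exact age or pooling of animals. They do not tie replicates to separate animals either, so each p-value reflects spread among these libraries that could be technical only. The question was which serotonin receptor RNAs the tagged neurons carry on their ribosomes relative to the surrounding midbrain.

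Serotonin is released in the midbrain by raphe neurons and by their axons, and most of its receptors are G protein-coupled receptors. Receptors of families 1 and 5 act mainly through Gi/o, which lowers cyclic AMP and can open GIRK potassium channels, although the coupling of Htr5b is less well established. Family 2 receptors act through Gq and phospholipase C, and Htr4 and Htr7 act through Gs and adenylyl cyclase. Several of them sit on axon terminals or on the serotonin neurons themselves, where they hold back release.

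Among the 10 receptor genes 5 were higher in IP (Htr1b, Htr1d, Htr2a, Htr5a and Htr7), 1 was lower (Htr5b), and Htr1a, Htr1f, Htr2c and Htr4 did not pass. A call was an adjusted p under 0.05 in edgeR's quasi-likelihood test across all 17197 tested genes, of which 26.0% were called higher and 27.9% lower. The median log2 fold change, IP over input, was 0.64 over the receptor genes and -0.01 over all tested genes. Tested against a 2-fold change, Htr1d and Htr2a exceeded it upward and Htr5b downward, against 2.25% and 12.9% of all tested genes. All 3 IP libraries lay above all 3 input libraries for 5 receptor genes and below them for 2, against 30.7% and 32.8% of tested genes. The count of receptor genes called higher was 3 without IP replicate 1 or without IP replicate 2, and the count called lower was 2 without input replicate 3. Over all tested genes 21.9% and 21.6% were called higher without those IP replicates, and 25.2% lower without input replicate 3. Htr1d, Htr2a and Htr7 stayed called higher and Htr5b called lower when any single library was left out. In bulk RNA, more cells of a type and more RNA per cell cannot be told apart.

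Each library held 38058239 to 45841499 gene counts, and Lhx5, the gene whose sequences drive the tag, had 46.8, 56.0 and 49.1 CPM (counts scaled to a common library size) in IP against 3.92, 3.80 and 2.20 in input. Some libraries stood apart in markers of other cells. Input replicate 3 had little RNA of midbrain monoamine neurons, with 0.296 CPM of Tph2, the serotonin synthesis enzyme, against 12.6 and 9.99 in input replicates 1 and 2. Its Slc6a3, the dopamine transporter, was at 4.98 CPM against 62.4 and 52.3. The same library had 73.2 CPM of the striatal dopamine receptor gene Drd1, against 11.2 and 3.37, and IP replicate 2 had 77.9 CPM of the Purkinje cell gene Pcp2, against 0.167 and 0.117 in the other IP libraries. Summed over 10 genes each, oligodendrocyte markers were at 337 to 499 CPM in IP and 4369 to 5199 in input, and 10 pan-neuronal genes at 20519 to 25753 in IP and 10241 to 13800 in input. Of those 10 pan-neuronal genes 8 were called higher and 1 lower, against 26.0% and 27.9% of all tested genes. Their median log2 fold change was 0.76. Scaling every library on these 10 genes instead moved the median of all tested genes to -0.65.

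**Figure D1:**
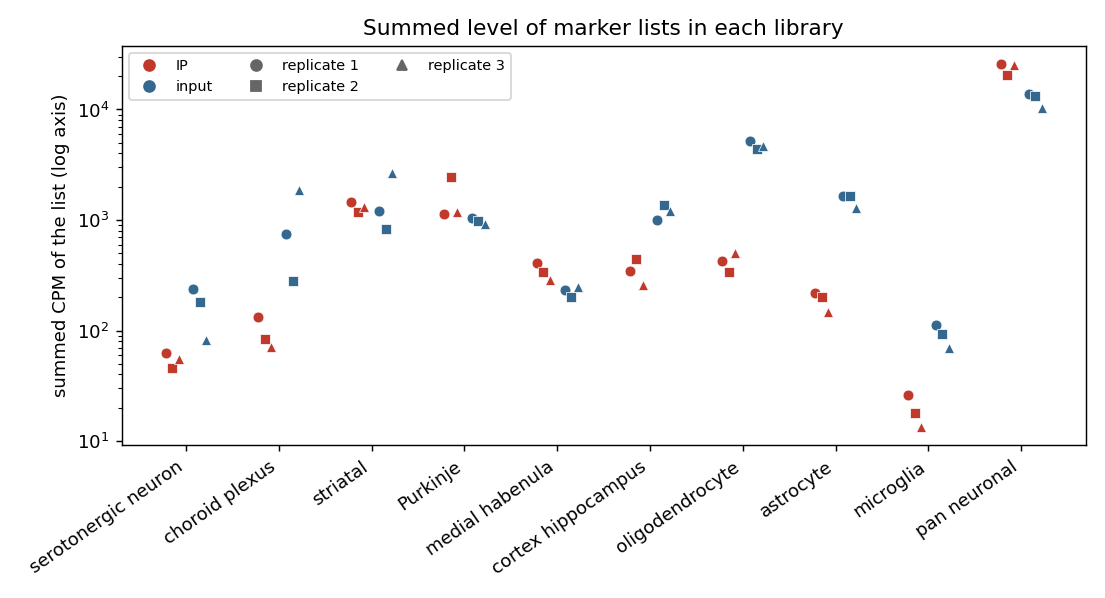
Summed CPM of each marker list (log axis) in the 6 libraries, with IP in red, input in blue and a symbol per replicate. Input replicate 3 has the highest choroid plexus sum, 1861 CPM, and the lowest serotonergic sum among the input libraries, 81.6 CPM, and IP replicate 2 has the highest Purkinje sum, 2436 CPM.

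Of the genes called higher in IP, the stretches before the start sites of Htr1d, Htr2a, Htr5a and Htr7 are shown, and that of Htr1b is not. They are RefSeq sequences on GRCm38.p6, the assembly of mm10, from 250 bases before the RefSeq start site up to the first base annotated as the gene in RefSeq or GENCODE, on the strand of the gene. Capitals mark any match to the GC box (GGGCGG) or the core bound by LIM homeodomain factors (TAATTA) on either strand.
Htr1d, chr4:136423274-136423523, plus strand: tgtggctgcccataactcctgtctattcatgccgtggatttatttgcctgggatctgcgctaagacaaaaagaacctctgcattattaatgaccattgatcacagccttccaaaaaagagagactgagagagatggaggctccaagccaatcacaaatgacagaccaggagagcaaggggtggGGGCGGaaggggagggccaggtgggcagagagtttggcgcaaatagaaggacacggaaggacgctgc
Htr2a, chr14:74640624-74640839, plus strand: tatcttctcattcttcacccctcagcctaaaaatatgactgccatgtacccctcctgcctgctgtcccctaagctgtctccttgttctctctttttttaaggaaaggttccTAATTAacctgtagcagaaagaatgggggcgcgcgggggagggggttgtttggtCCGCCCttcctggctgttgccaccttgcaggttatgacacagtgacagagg
Htr5a, chr5:27841697-27841946, plus strand: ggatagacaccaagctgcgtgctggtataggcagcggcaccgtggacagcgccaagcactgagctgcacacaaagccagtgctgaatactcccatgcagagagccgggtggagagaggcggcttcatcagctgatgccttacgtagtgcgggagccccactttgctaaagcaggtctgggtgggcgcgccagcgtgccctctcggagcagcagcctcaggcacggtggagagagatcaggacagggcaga
Htr7, chr19:36057508-36057610, minus strand: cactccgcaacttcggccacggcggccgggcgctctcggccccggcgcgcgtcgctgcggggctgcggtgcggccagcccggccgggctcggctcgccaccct
A 300-base window around the start was found for 8 of the 10 receptor genes, and 4 motifs were searched on both strands in it. TAATTA was found in the window of Htr2a, first base at -139 from the start site, and in no other receptor window, and 5.29% of 32851 windows of all genes held it. The GC box was found once each in the windows of Htr1a, Htr1f, Htr2a and of the first Htr1d start, and 4 times at a second Htr1d start, and 35.7% of all windows held it. Neither TATAAA nor the cyclic AMP response element TGACGTCA was found in any receptor window, and 13.6% and 1.79% of all windows held them. The window of Htr7 was 81.0% G and C, that of the first Htr1d start 52.0% and that of the second 74.3%, against a median of 52.7% over all windows. These are matches of letters and were not tested as binding sites.

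Htr1d, a Gi/o-coupled receptor known as an inhibitory receptor on nerve terminals, had the largest rise of the 10. IP replicates 1, 2 and 3 had 44.2, 27.9 and 63.3 CPM, and the input replicates had 6.94, 3.19 and 9.10 CPM. The lowest IP library was about 3 times the highest input library, and replicate 2 was the lowest and replicate 3 the highest in both groups. Its log2 fold change was 2.82 (SE 0.41, adjusted p 0.000737 by edgeR's quasi-likelihood test), a 7.04-fold difference. Leaving out IP replicate 2 and input replicate 3 together gave 3.35 (SE 0.39), and scaling on the pan-neuronal genes gave 2.13 (SE 0.40). Htr1d lies on chromosome 4 from 136423524 to 136444398 (GENCODE M21, GRCm38, plus strand).

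Htr1b, the closest relative of Htr1d and a release-inhibiting receptor on serotonin and other axon terminals, was low in both groups. Its IP libraries had 5.52, 4.42 and 4.71 CPM and its input libraries 3.53, 2.36 and 3.26 CPM. The groups did not overlap, and the log2 fold change was 0.68 (SE 0.25, adjusted p 0.0475). The call was lost when any of the 6 libraries was left out, with adjusted p from 0.0620 to 0.151. Within edgeR it was also lost with every other scaling (0.0572 to 0.919). It was kept with DESeq2 (adjusted p 0.0346), limma-voom (0.0369) and the replicate block (0.0443). On chromosome 9, from 81628291 to 81633828 on the minus strand, Htr1b shares 852 exonic bases with the antisense gene D430036J16Rik, whose reads cannot be told apart without strand. That antisense gene had 2.22 to 4.81 CPM in IP and 2.43 to 10.6 CPM in input. Counts of Htr1b are therefore uncertain.

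Htr1a, the somatodendritic autoreceptor of serotonin neurons and also a receptor of many target neurons, was at the same range in both groups. IP replicates had 31.1, 21.5 and 26.7 CPM and input replicates 30.1, 30.2 and 21.6 CPM. The groups overlapped, the log2 fold change was -0.05 (SE 0.19, adjusted p 0.850) and its 95% interval ran from -0.47 to 0.38. Relative to the pan-neuronal genes Htr1a was lower, at -0.68 (SE 0.16, adjusted p 0.00592). The ratio of Htr1d to Htr1a counts was 1.42, 1.30 and 2.37 in IP and 0.230, 0.106 and 0.422 in input. Htr1a is a gene of 1 exon on chromosome 13 from 105443639 to 105448122, plus strand.

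Markers of serotonin neurons did not rise with these receptors. Of 14 listed genes 12 were tested, 0 were higher, 5 were lower and 7 did not pass. Of all tested genes 26.0% were called higher and 27.9% lower. Tph2 had 1.67, 0.976 and 2.38 CPM in IP, and the serotonin transporter gene Slc6a4 had 1.86, 1.10 and 2.24 CPM in IP against 14.5, 8.09 and 0.222 in input. Neither of these 2 genes passed (adjusted p 0.0840 and 0.102), and the IP values lay between those of input replicate 3 and of the other input libraries. Fev, Gch1, Gata3, En1 and En2 did not pass either, with log2 fold changes of -0.51, -0.86, -1.99, 0.38 and -0.04. The 5 that were lower were Slc18a2, the vesicular monoamine transporter (-1.74), Ddc, the decarboxylase (-1.73), Gata2, a selector factor (-2.20), Slc22a3, an organic cation transporter (-1.63), and Maob, monoamine oxidase B (-2.79). Slc18a2 and Ddc were also listed as markers of dopamine neurons, of which 8 were tested, 6 were lower and 1 was higher. Without input replicate 3, 10 of 14 tested serotonin neuron genes were lower, and without IP replicate 2 or IP replicate 3 only 3 of 14. Those settings called 25.2%, 26.5% and 26.8% of all tested genes lower. No serotonin neuron gene of the list was higher under any of these settings. The additional falls without input replicate 3 included Tph2 (-2.79, adjusted p 0.000732) and Slc6a4 (-2.73, adjusted p 0.000950). Ddc, Slc22a3 and Maob stayed called when any single library was left out, while Slc18a2 lost its call without IP replicate 2 (adjusted p 0.0538) or IP replicate 3 (0.0680). Gata2 lost its call without input replicate 1 or 2 or IP replicate 2 or 3 (adjusted p 0.0720 to 0.0881) and was -2.79 without IP replicate 1. The summed level of the list was 46.3 to 62.6 CPM in IP and 81.6 to 237 in input, and no listed gene was at 0 in any library. Htr1a in input was lowest in the same library, replicate 3, and without that library its log2 fold change was -0.22 (SE 0.17, adjusted p 0.312). The part of serotonin neurons in the level of Htr1a was not tested.

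Htr1f, a Gi/o-coupled receptor of low abundance, did not pass. IP replicates had 3.56, 2.93 and 1.12 CPM and input replicates 3.15, 2.15 and 3.16 CPM. IP replicate 3 was below every other library, and the other IP libraries lay within or above the input range. The log2 fold change was -0.15 (SE 0.43, adjusted p 0.782), and it was 0.21 without IP replicate 3. Its 95% interval, from -1.13 to 0.83, leaves a 2-fold fall within reach. The gene is on chromosome 16 from 64924729 to 65105854, minus strand.

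The 2 receptors of family 5 went opposite ways. Htr5a, a neuronal receptor that couples to Gi/o, had 47.0, 45.4 and 29.96 CPM in IP and 26.6, 25.4 and 13.7 CPM in input. Replicate 3 was the lowest in both groups, and the groups did not overlap. The log2 ratios within same-numbered pairs were 0.82, 0.84 and 1.13. The log2 fold change of Htr5a was 0.90 (SE 0.27, adjusted p 0.0215). It was 0.79 (adjusted p 0.0653) without IP replicate 1, 0.78 (adjusted p 0.0986) without IP replicate 2, and 0.52 (adjusted p 0.122) without IP replicate 2 and input replicate 3 together. Scaling on the pan-neuronal genes gave 0.29 (adjusted p 0.359). Htr5a is on chromosome 5 from 27842149 to 27855088, plus strand.

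Htr5b, a receptor known from the habenula and a few other nuclei, was nearly absent from IP. IP replicates held 7, 20 and 3 counts and input replicates 114, 103 and 87 counts. In CPM these were 0.167, 0.488 and 0.0700 against 2.74, 2.36 and 2.15, with no overlap. The log2 fold change was -3.31 (SE 0.63, adjusted p 0.00250), a 9.93-fold difference, and -4.35 without IP replicate 2, the highest of the 3. The ratio of Htr5a to Htr5b counts was 281, 92.9 and 428 in IP and 9.73, 10.8 and 6.38 in input. Htr5b is on chromosome 1 from 121509842 to 121528465, minus strand.

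Genes known from the medial habenula moved in both directions beside Htr5b. Of 10 listed markers, all tested, 3 were higher (Pou4f1, Calb2 and Tac1) and 4 lower (Chrnb4, Gpr151, Nwd2 and Gng8). Of all tested genes 26.0% were called higher and 27.9% lower. The remaining 3 markers did not pass, and none of the 10 was at 0 in any library. On leaving out single libraries 2 to 4 were higher and 3 or 4 lower. Gpr151, an orphan receptor of habenular axons, had 1.46, 0.708 and 0.0700 CPM in IP against 7.38, 3.51 and 4.19 in input (log2 fold change -2.75, SE 0.76). It lost its call without input replicate 1 (adjusted p 0.0585) or IP replicate 2 (adjusted p 0.0610), and was -3.68 without IP replicate 1. Chrnb4, a nicotinic receptor subunit, had 2.65, 1.37 and 1.003 CPM against 10.1, 5.80 and 5.06 (-2.06, SE 0.42). Pou4f1, a factor of habenular neurons and of some midbrain neurons, was higher in IP, at 25.7, 13.7 and 37.3 CPM against 7.52, 6.10 and 5.26 (2.02, SE 0.34). The summed level of the list was 284 to 405 CPM in IP and 203 to 248 in input. Its most abundant members were Calb2, Tac1 and Tac2, with means over all libraries of 83.2, 71.3 and 41.0 CPM. The sum therefore says little of the 4 lower markers. The part of habenular tissue in the values of Htr5b was not tested.

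**Figure D2:**
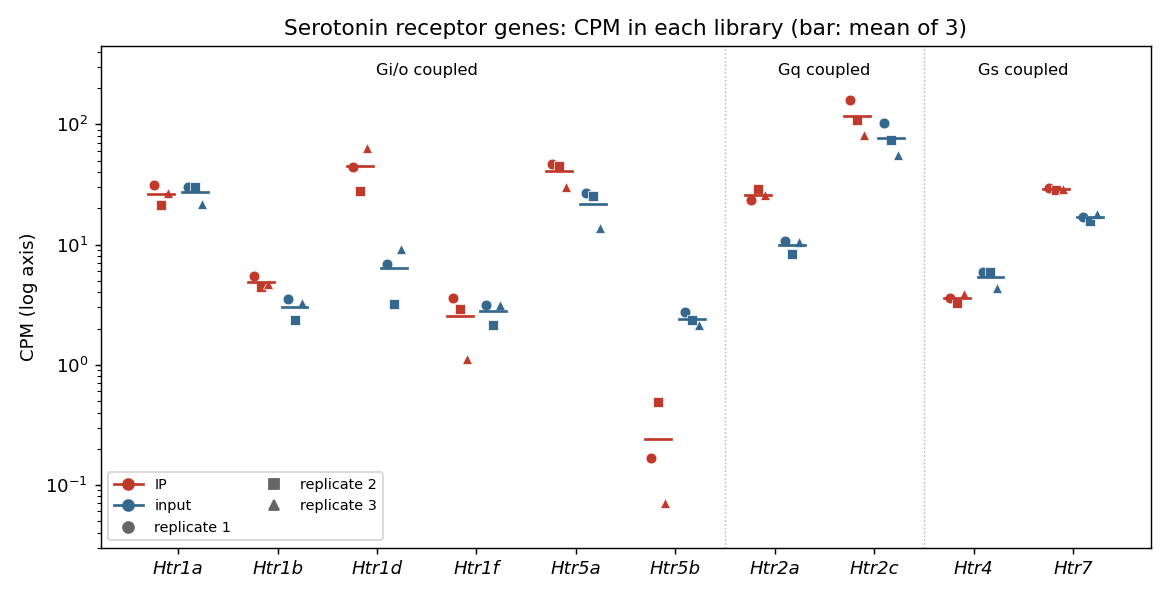
CPM of the 10 serotonin receptor genes (log axis) in each IP library (red) and input library (blue), with a symbol per replicate and a bar at the mean of 3; genes are grouped by the G protein they act through, that of Htr5b being less well established. Htr1b, Htr1d, Htr2a, Htr5a and Htr7 are higher in every IP library than in any input library, Htr4 and Htr5b are lower in every IP library, and Htr1a, Htr1f and Htr2c overlap.

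Both Gq-coupled members were abundant enough to compare, and only Htr2a passed. Htr2a, the receptor through which classical psychedelics act, had 23.3, 29.2 and 25.6 CPM in IP and 10.8, 8.36 and 10.4 CPM in input. The IP libraries were close to one another and all over 2 times the highest input library. The log2 fold change was 1.40 (SE 0.16, adjusted p 0.000239), with a 95% interval from 1.03 to 1.77. It was 1.30 (SE 0.20) without IP replicate 2 and input replicate 3, and 0.77 (SE 0.20, adjusted p 0.00891) relative to the pan-neuronal genes. Htr2a is on chromosome 14 from 74640840 to 74709494, plus strand.

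Htr2c, a receptor of broad neuronal expression that is also rich in choroid plexus and whose RNA is edited, had the highest counts of the 10. IP replicates had 160, 108 and 82.4 CPM and input replicates 102, 73.6 and 55.4 CPM. Replicate 1 was the highest and replicate 3 the lowest in both groups, so the groups overlapped. Within same-numbered pairs, which share a sequencing lane, IP exceeded input by log2 ratios of 0.65, 0.55 and 0.57. The fit without pairs gave 0.60 (SE 0.28, adjusted p 0.0966), and the fit with the replicate block gave 0.59 (SE 0.093, adjusted p 0.00168). Without input replicate 1 it was 0.86 (adjusted p 0.0405) and without IP replicate 3 it was 0.81 (adjusted p 0.0369), while without IP replicate 1 it was 0.32 (adjusted p 0.330). Relative to the pan-neuronal genes the difference was -0.017 (SE 0.26, adjusted p 0.960). Htr2c is on the X chromosome from 146962513 to 147197277, plus strand, and its introns hold small RNA genes that share no exonic base with it.

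RNA of the choroid plexus, a tissue rich in Htr2c, differed widely between the input libraries. Ttr, the transthyretin gene of that tissue, was at 338, 7.24 and 1265 CPM in input replicates 1, 2 and 3 and at 21.3, 0.391 and 2.75 CPM in IP. The library with the most Ttr, input replicate 3, had the least Htr2c of all 6, whereas input replicate 1 had more of both than input replicate 2, and IP replicate 1 had the most of both among the IP libraries. Of 14 choroid plexus markers 12 were tested, 0 were higher, 6 were lower and 6 did not pass. The shares over all tested genes were 26.0% higher and 27.9% lower. The summed level of the markers was 70.9 to 133 CPM in IP and 278 to 1861 in input. Most of that sum was Ttr in input replicate 3, but Enpp2 in input replicate 2 (222.9 CPM of 278). In IP replicate 2 Enpp2 made up 43.3 CPM of 83.1. Enpp2 is 1 of the 6 lower genes, and whether its RNA came from choroid plexus was not tested. Without input replicate 2, 11 of 14 tested were lower, and without IP replicate 1, 9 of 14. Those settings called 23.7% and 25.2% of all tested genes lower. Folr1, Slc4a5, Tmem72 and F5 were at 0 in at least 1 library. Without input replicate 3, Htr2c stood at 0.39 (SE 0.28, adjusted p 0.290). The part of choroid plexus in the values of Htr2c was not tested.

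The 2 Gs-coupled members also differed. Htr7, a receptor linked to sleep and circadian timing, had the least scatter of the 10, with 29.7, 28.2 and 28.9 CPM in IP and 17.1, 15.8 and 18.0 CPM in input. The groups were well separated. Its log2 fold change was 0.77 (SE 0.12, adjusted p 0.00103), and it ranged from 0.73 to 0.79 when single libraries were left out. Scaled on the pan-neuronal genes it was 0.13 (SE 0.16, adjusted p 0.499). Htr7 is on chromosome 19 from 35958734 to 36057507, minus strand.

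Htr4, a receptor rich in striatum, hippocampus and habenula, had 3.61, 3.25 and 3.89 CPM in IP and 5.89, 5.91 and 4.34 CPM in input. All IP libraries were below all input libraries. The log2 fold change was -0.59 (SE 0.23) and did not pass (adjusted p 0.0574). It passed with upper-quartile scaling (-0.74, adjusted p 0.0238), with DESeq2 (-0.62, adjusted p 0.0266) and without input replicate 3 (-0.75, adjusted p 0.0270). Input replicate 3 had the highest striatal marker sum, 2675 CPM over 13 markers, and the least Htr4 of the input libraries. The same sum was 837 and 1195 CPM in the other input libraries and 1178 to 1456 CPM in IP. Of those striatal markers 1 was higher and 7 were lower, against 26.0% and 27.9% of all tested genes. The remaining 5 markers did not pass, and no striatal marker was at 0. Leaving out single libraries gave 1 to 8 of them lower, with 1 without IP replicate 3 and 8 without input replicate 2, and 0 to 3 higher. Omitting IP replicate 1 left 2 lower, and omitting either IP replicate 2 or the third input library left 3. With the replicate block 2 were higher and 1 lower. The part of striatal tissue in the values of Htr4 was not tested. Htr7 to Htr4 count ratios were 8.24, 8.70 and 7.43 in IP and 2.90, 2.67 and 4.15 in input. The gene is on chromosome 18 from 62324204 to 62496577, plus strand.

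**Figure D3:**
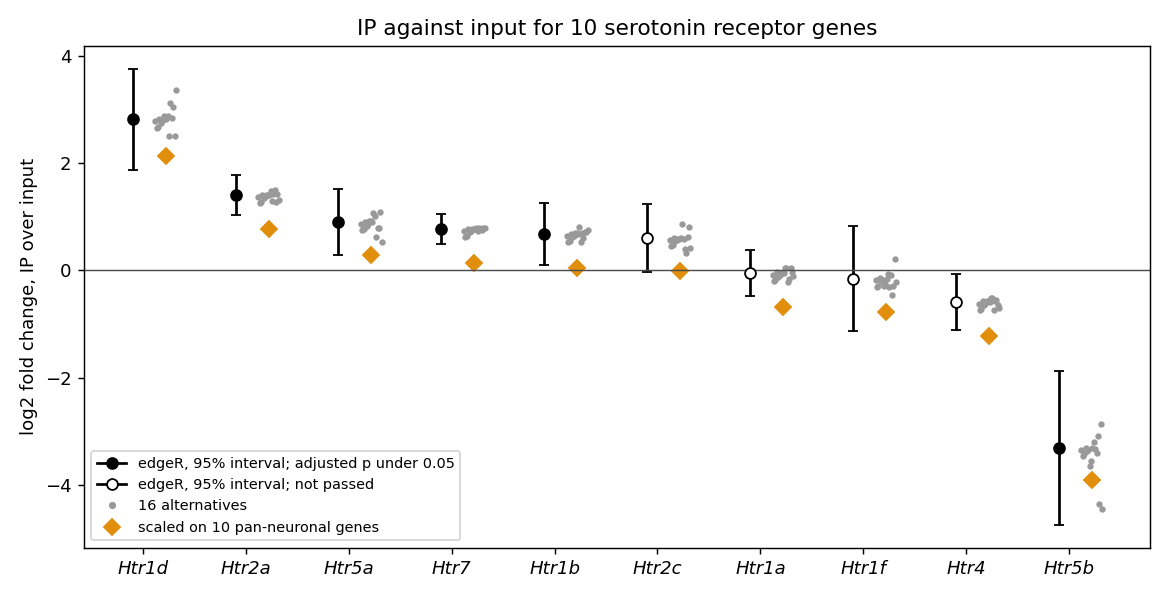
Log2 fold change of IP over input for each receptor gene by edgeR with its 95% interval (circles, filled where the adjusted p was under 0.05), the other alternatives (grey) and the scaling on 10 pan-neuronal genes (orange). Htr1b, Htr1d, Htr2a, Htr5a and Htr7 stay above 0 and Htr5b and Htr4 below 0 under every setting. With the pan-neuronal scaling Htr7 moves from 0.77 to 0.13, and Htr2c from 0.60 to -0.017.

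Read against the pan-neuronal genes, 2 receptors, Htr1d and Htr2a, were still called higher, and Htr1a, Htr4 and Htr5b were called lower. Under that scaling, chosen after seeing the data, 5.78% of tested genes were called higher and 49.9% lower, against 26.0% and 27.9% with the usual scaling. Htr1b, Htr5a and Htr7 kept a positive sign without a call. Of all calls 48.2% were upward with the usual scaling, 38.1% with upper-quartile scaling, which moved the median of all tested genes to -0.17, and 10.4% with the pan-neuronal one.

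Counts divided by exon length gave the order of the receptors within each group, in CPM per kilobase. In IP the order was Htr1d (14.1 ± 5.53), Htr2c (12.5 ± 4.25), Htr7 (8.52 ± 0.217), Htr5a (7.58 ± 1.75), Htr1a (5.89 ± 1.08) and Htr2a (4.65 ± 0.535). Htr1b (1.03 ± 0.121), Htr1f (0.983 ± 0.491), Htr4 (0.730 ± 0.0661) and Htr5b (0.125 ± 0.113) followed (SD, n = 3 each). Among neighbours in this order the libraries of Htr2c and Htr7, of Htr2a and Htr1b, and of Htr4 and Htr5b did not overlap, and the other neighbours overlapped. The median of 15069 tested genes with a known length was 3.44 to 3.49 CPM per kilobase in IP. In input the order was Htr2c (8.25 ± 2.51), Htr1a (6.09 ± 1.10), Htr7 (4.99 ± 0.332), Htr5a (4.08 ± 1.33), Htr1d (2.003 ± 0.936) and Htr2a (1.76 ± 0.234). Htr5b (1.25 ± 0.155), Htr4 (1.10 ± 0.183), Htr1f (1.09 ± 0.224) and Htr1b (0.646 ± 0.130) came last. Of these neighbours, Htr2a and Htr5b, and Htr1f and Htr1b, did not overlap. By mean, Htr1d thus stood at rank 1 in IP and rank 5 in input, and Htr1a at ranks 5 and 2. Htr1d was above Htr2c only in IP replicate 3. As shares of the sum of the 10 genes, Htr2c was 27.3%, 23.1% and 15.9% in IP replicates 1, 2 and 3. Htr1d was 21.9%, 17.4% and 35.6% there. With the longest transcript as the length, Htr2c was first in IP at 23.9 ± 8.12 and Htr1d second at 15.5 ± 6.10, because the exons of Htr2c together span 9328 bases and its longest transcript 4883.

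Summed over the 10 genes, receptor RNA per length was 62.9, 50.001 and 55.4 CPM per kilobase in IP and 36.3, 30.2 and 27.2 in input. Of this sum Htr1d made up 21.9%, 17.4% and 35.6% in the IP libraries and 5.98%, 3.29% and 10.5% in the input libraries. Htr1a made up 11.0%, 9.58% and 10.7% in IP and 18.5%, 22.2% and 17.7% in input. Htr5b had a mean share of 4.003% ± 0.0925 in input and 0.236% ± 0.236 in IP, and Htr4 stood at 3.51% ± 0.409 and 1.31% ± 0.132 (SD, n = 3 each). Htr1f stood at 3.54% ± 0.882 in input and 1.75% ± 0.838 in IP. The exact permutation test on 3 against 3 libraries cannot go below a two-sided p of 0.1, so no share could pass a threshold of 0.05, and these 5 shares reached that smallest value. Shares of 1 sum depend on one another, so a share can fall without a fall in the level of its gene. Htr1a and Htr1f did not pass on their own levels (log2 fold change -0.05 and -0.15). Grouped by G protein the shares moved little: genes of the Gi/o class made up 52.9% ± 5.50 in IP and 48.6% ± 1.08 in input, of the Gq class 30.5% ± 5.51 and 31.7% ± 3.41, and of the Gs class 16.6% ± 1.45 and 19.7% ± 2.82. The libraries of IP and input overlapped for each of these classes (exact p 0.3, 0.8 and 0.2), and with the longest transcript as the length they did not overlap for Gi/o (exact p 0.1).

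**Figure D4:**
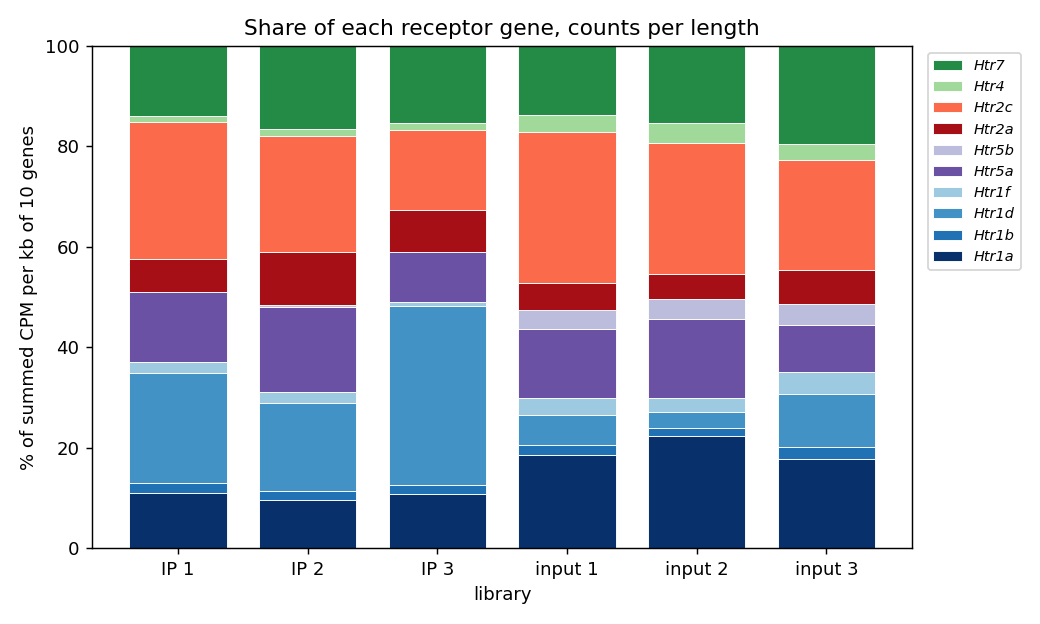
Share of each receptor gene in the summed CPM per kilobase of the 10 genes, as stacked bars that reach 100% in each of the 6 libraries. Htr1d takes 17.4% to 35.6% of the IP bars and 3.29% to 10.5% of the input bars, and Htr1a 9.58% to 11.0% and 17.7% to 22.2%.

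The other serotonin receptor genes in the tables were scarce. Of these 4 genes, 3 were tested, 0 were higher, 2 were lower and 1 did not pass. Of all tested genes 26.0% were called higher and 27.9% lower. Htr2b, a Gq-coupled receptor of heart and vessels, had 0.0478, 0.122 and 0.210 CPM in IP and 0.889, 0.894 and 1.28 CPM in input (log2 fold change -2.98, SE 0.62, adjusted p 0.00385). It shares 252 exonic bases with Psmd1 on the opposite strand, so its counts are uncertain. Htr3a, the subunit of the serotonin-gated ion channel, had 0.693, 1.001 and 0.746 CPM in IP and 1.37, 2.09 and 1.88 in input (-1.13, SE 0.38, adjusted p 0.0343). Htr3a lost its call with the replicate block (adjusted p 0.0535) and on leaving out replicate 1 or 3 of IP or replicate 2 or 3 of input (0.0689 to 0.124), while Htr2b kept its call there. Htr6, a Gs-coupled receptor, had 0.717, 0.781 and 0.210 CPM in IP and 0.769, 0.504 and 1.41 in input and did not pass (adjusted p 0.413). Htr3b, a partner subunit of Htr3a, had 3, 2 and 1 counts in IP and 0, 0 and 10 in input and was not tested.

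Genes downstream of the receptors were read from lists by G protein. Of all tested genes 26.0% were called higher and 27.9% lower. For Gs, 9 of 15 tested genes were higher and 1 was lower, with a median log2 fold change of 0.69. Gnas, the Gs alpha subunit, had 4458, 3983 and 4638 CPM in IP against 2063, 1875 and 1806 in input (1.19, SE 0.11). The protein kinase A genes Prkar1a and Prkacb were higher by 0.46 (SE 0.094) and 0.69 (SE 0.12), and the cyclase gene Adcy1 was lower at -1.18 (SE 0.14). For Gq, 1 of 13 was higher and 4 were lower, with a median of -0.69, and 7 were lower without IP replicate 2. That median was -1.12 without IP replicate 2, -0.34 without IP replicate 1 and -0.22 without IP replicate 3, and with the replicate block 2 Gq genes were higher and 4 lower. Plcb4, a phospholipase C, was higher by 0.49 (SE 0.13) and lost that call without input replicate 3, while Prkcb, a protein kinase C, was lower at -1.003 (SE 0.22), and Gnaq did not pass (-0.21, SE 0.097, adjusted p 0.0917).

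For Gi/o, 3 of 9 were higher and 2 lower, against 26.0% and 27.9% of all tested genes, with a median of 0.18. Gnao1, the Go alpha subunit of brain, was higher by 0.48 (SE 0.13), Gnaz by 1.10 (SE 0.11) and the GIRK channel gene Kcnj9 by 0.80 (SE 0.24). Gnai3, a Gi alpha subunit, was lower at -0.75 (SE 0.12) and stayed called when any single library was left out. Kcnj6, the GIRK subunit of dopamine neurons among others, was lower at -0.51 (SE 0.14), and Gnai1 and Gnai2 did not pass (adjusted p 0.123 and 0.142). Gnao1 and Kcnj6 lost their calls without input replicate 1 or input replicate 2 (adjusted p 0.0506 to 0.0697), and Kcnj9 without input replicate 3, IP replicate 1 or IP replicate 2 (0.0661 to 0.107). Without single libraries 2 to 4 Gi/o genes were higher, and 1 was lower without input replicate 1 or input replicate 2. Scaled on the pan-neuronal genes, 3 Gs genes were higher and 2 lower, 0 Gq genes were higher and 6 lower, and 1 Gi/o gene was higher and 5 lower. That scaling called 5.78% of all tested genes higher and 49.9% lower.

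Among 16 tested genes listed as regulators of these receptors, 8 were higher and 2 lower, with a median of 0.39. Of all tested genes 26.0% were called higher and 27.9% lower. S100a10, the p11 protein that binds Htr1b and Htr4, had 41.9, 30.6 and 57.8 CPM in IP and 16.5, 13.5 and 13.3 in input (log2 fold change 1.59, SE 0.23). The RNA editing enzyme gene Adar was higher by 1.06 (SE 0.16), and Adarb1, which edits Htr2c RNA, did not pass (0.36, SE 0.15, adjusted p 0.0701) except with the replicate block (adjusted p 0.0203). The scaffold gene Dlg4 and the sorting nexin gene Snx27 were higher by 0.48 (SE 0.12) and 0.34 (SE 0.11). Mpdz, a scaffold that binds Htr2c, was lower at -0.49 (SE 0.14). Mpdz lost its call without input replicate 2 (adjusted p 0.0731), and Snx27 lost its call without input replicate 2 or 3 or IP replicate 1 or 3 (0.0603 to 0.101). On leaving out single libraries 7 to 9 genes of the list were higher, and 1 was lower without input replicate 1 or 3 or IP replicate 1 or 3. With the pan-neuronal scaling 1 gene of this list was higher and 7 were lower, against 5.78% and 49.9% of all tested genes. Of the monoamine oxidase genes, which act in serotonin breakdown, Maob was lower, as given above, and Maoa, at 46.6 to 62.0 CPM in IP and 48.5 to 52.0 in input, did not pass.

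The genes most alike in pattern were ranked by Pearson's r of log2 CPM over the 6 libraries, among 12758 named genes with a mean of at least 1 CPM. For Htr1d they were Pold2 (r = 0.9994) and Zfp706 (r = 0.9982), for Htr2a Zswim1 (r = 0.998) and Irf2bp1 (r = 0.9973), and for Htr7 Lsm2 (r = 0.999) and Psmg4 (r = 0.9987). Htr5b was most like Ppp2r5a (r = 0.9979) and Plxnb1 (r = 0.9971), and Htr1a most like Chrna5 (r = 0.9884) and Amer1 (r = 0.9776). The measure is blind to the size of a difference: Pold2 had a log2 fold change of 0.63 against 2.82 for Htr1d. The libraries and their depth are shared by all genes compared, so these values describe the pattern only.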

How the data were processed

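The authors deposited a table of unnormalized read counts by gene symbol for each library. STAR 2.0.0e and HTSeq were used on mm10, per the submitters' processing notes; which annotation, strand setting and counting mode is not stated there. The entry for unknown genes and the HTSeq summary lines were kept out of totals and tests: their share of all counts was 53.7% ± 0.384 for IP and 55.6% ± 0.418 for input libraries (SD, n = 3), with ambiguous reads at 1.63% ± 0.0460 and 9.35% ± 1.48.

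Groups and replicate numbers come from the titles. Genes with low counts were removed by filterByExpr (minimum count 10, minimum total 15), leaving 17197. After TMM scaling the test was that of edgeR 4.0.16, run in R 4.3.3 (quasi-likelihood F test, robust, two-sided, group as the only term) with Benjamini-Hochberg adjustment over all tested genes. The SE is the log2 fold change over the square root of F, and changes over 2-fold were tested with glmTreat. The script was tested on simulated data. At this depth 3 counts are 0.0654 to 0.0788 CPM before scaling, counting error only. Lengths and positions are from GENCODE M21 and promoter windows from RefSeq (GRCm38.p6).

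Same-numbered libraries carry the same lane in their labels, and the pairing comes from there. Across genes, the correlation of their deviations from group means was 0.155, 0.074 and 0.051. Replicates correlated at 0.971 to 0.985 (log2 CPM), with chi-square per degree of freedom of 25.6 to 79.3, so none was a copy.

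The 10 receptor genes and all lists were chosen with earlier results of these data known. Named genes were the 10 receptors, Lhx5, the other serotonin receptor genes, serotonin neuron genes, up to 3 most abundant members of each other list, and the 2 genes most alike to a receptor. Adcy1, Gnai3, Gnaz, Kcnj6, Kcnj9, S100a10, Adar, Mpdz, Gpr151, Chrnb4, Pou4f1, Nwd2, Gng8, Slc6a3, Drd1, Pcp2, D430036J16Rik and the choroid plexus genes at 0 were named after their values were seen. The alternatives were scaling by RLE, by the upper quartile or by library totals, other filters (none, or minimum count 30), DESeq2 1.42.0, limma-voom (limma 3.58.1), a replicate block, a threshold of 0.01 and leaving out libraries. Scaling on 10 pan-neuronal genes was added after seeing the data.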

Additional observations from a re-analysis of the deposited data

How the results depend on the processing

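Of the 170 alternative values of single receptor genes, 134 kept direction and side of the threshold, 20 lost a call, 11 gained one and 5 changed sign. Htr1d, Htr2a and Htr5b kept their calls under all 17 alternatives, and Htr7 under all but the pan-neuronal scaling. The 5 changes of sign were of genes without a call: Htr1a between -0.22 and 0.051 as single libraries were left out, Htr1f between -0.47 and 0.21, and Htr2c at -0.017 with the pan-neuronal scaling. Htr1a was above 0 when input replicate 1, input replicate 2 or IP replicate 2 was left out, and Htr1f when IP replicate 3 was.

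The count of receptor genes called higher, 5, was 3 at a threshold of 0.01 and without IP replicate 2 and input replicate 3 together, 2 with the pan-neuronal scaling, and 3 to 5 when single libraries were left out. The share of all tested genes called higher, 26.0%, was 17.7%, 20.0% and 5.78% in the first of these settings. It was 21.2% to 24.6% when single libraries were left out. The count called lower, 1, was 2 with RLE size factors, upper-quartile scaling, library totals alone, a minimum count of 30 and DESeq2, by the call of Htr4, 3 with the pan-neuronal scaling, and 1 to 2 when single libraries were left out. The share of all tested genes called lower, 27.9%, was 28.7% to 32.4% where the count was 2 by scaling, filter or DESeq2. It was 49.9% with the pan-neuronal scaling and 23.7% to 26.8% when single libraries were left out. Over all genes 4467 were higher and 4794 lower, against 994 and 8586 with the pan-neuronal scaling. Beyond the change of scale that a scaling makes, the cause was not tested. The replicate block gave 4811 genes higher and 4879 lower, and among the receptors it changed the call of Htr2c alone. Among 33 other genes named with a test or call it changed those of Adarb1 and Htr3a. Gnai3, Calb2, Tac1, Nwd2, Gng8, Enpp2, Fev, Gch1, Gata3, En1 and En2 are not in that count, and their calls did not change. Depth limits Htr5b and the scarce receptors most, which rest on a few counts in IP.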
